A study of Mus musculus with 10 samples.

Results

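Skin of C3H/HeJ mice was profiled on 10 arrays at week 12 after the mice had received grafts of alopecic skin, a transfer model of alopecia areata (AA). All 10 mice were young adult graft recipients. From the time of grafting 5 received systemic baricitinib, which blocks the cytokine receptor kinases JAK1 and JAK2, and 5 received vehicle, each through an implanted osmotic pump and with 1 array per mouse. Both groups had received the alopecic graft, ungrafted skin was not analysed here, and whether a biopsy held graft or recipient skin is not stated in the sources used here. The respiratory chain was represented by nuclear genes encoding subunits of complexes I to IV, and 41 such genes were chosen by name. A member was read by its brightest probe set, the one with the highest mean over all arrays among those annotated with its symbol alone. Of the 41 genes 40 were measured, among 18193 genes on the array, and Cox7b was skipped because no probe set carried its symbol alone. There were 22 genes of complex I, 4 of complex II, 7 of complex III and 7 of complex IV, and all 40 had a mean above 6 log2.

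The respiratory chain lies in the inner mitochondrial membrane. Complex I takes electrons from NADH and complex II from succinate, complex III passes them from ubiquinol to cytochrome c, and complex IV hands them to oxygen. Protons pumped by complexes I, III and IV drive ATP synthase. The subunits studied here are encoded in the nucleus and imported, and in skin their transcripts come from keratinocytes, hair follicles and dermal cells and from the fat and mitochondria-rich muscle beneath. In such bulk samples a smaller number of cells of a type and less RNA per cell cannot be told apart.

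Start regions of these genes often hold letters recognised by nuclear respiratory factor 1 (NRF1), by ETS family factors such as GABPA, by YY1 or by SP1. RefSeq promoter windows, running from 250 bases before to 50 bases after the annotated start, matched 30 of the 40 members in assembly GRCm38.p6, with 31 windows in all. On both strands the NRF1 motif was found in 6 of the 31 windows (19.4%) and in 4.6% of all 32851 windows, CCGGAAG (ETS) in 8 (25.8%) and 8.86%, AAGATGGC (YY1) in 5 (16.1%) and 2.75%, and GGGCGG (SP1) in 12 (38.7%) and 35.7%. The letters TCAAGGTCA, read by estrogen-related receptors, were in 1 window (3.23%), that of Sdhd, and in 0.423% of all. The 2 windows of Ndufa5 overlap. The upstream stretches of 3 members whose values are given in full below are shown because they hold such letters. By their brightest probe sets these genes had lower mean values in baricitinib treated skin. Further probe sets of Ndufb6 (0.18 log2) and Sdhd (0.92) were higher. Windows of members with higher means held such letters too, such as Uqcrc1 (2 NRF1 matches) and Cox8a (2 ETS matches). The choice therefore ties no motif to a direction. Ndufv2 lies at chr17:66101560-66101809, Ndufb6 at chr4:40279422-40279671 and Sdhd at chr9:50603850-50604099, all on the minus strand, and each is written 5′ to 3′ toward the start with matches in capitals.
Ndufv2: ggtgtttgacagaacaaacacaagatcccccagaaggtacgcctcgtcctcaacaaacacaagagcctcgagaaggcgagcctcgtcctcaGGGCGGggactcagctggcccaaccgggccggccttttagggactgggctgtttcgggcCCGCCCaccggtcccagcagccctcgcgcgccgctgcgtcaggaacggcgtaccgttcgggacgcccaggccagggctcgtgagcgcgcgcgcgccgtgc
Ndufb6: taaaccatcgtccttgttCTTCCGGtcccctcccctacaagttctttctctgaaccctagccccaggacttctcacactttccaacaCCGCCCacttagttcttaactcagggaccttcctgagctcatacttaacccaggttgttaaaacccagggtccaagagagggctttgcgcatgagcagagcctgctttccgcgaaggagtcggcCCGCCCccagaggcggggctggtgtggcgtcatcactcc
Sdhd: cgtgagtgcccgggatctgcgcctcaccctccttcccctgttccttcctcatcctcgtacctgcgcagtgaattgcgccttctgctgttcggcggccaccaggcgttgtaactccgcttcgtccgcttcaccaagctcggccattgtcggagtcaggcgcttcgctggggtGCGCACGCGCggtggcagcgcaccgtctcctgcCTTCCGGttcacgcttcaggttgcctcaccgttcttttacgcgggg
Capitals mark SP1 letters in Ndufv2 (2 matches), SP1 (2) and ETS (1) letters in Ndufb6, and NRF1 (1) and ETS (1) letters in Sdhd, on either strand. The SP1 and estrogen-related receptor matches of Sdhd fell in the 50 bases after its start, which are not printed. A match describes letters in a window and is not a measured site.

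The arrays differed in quality in ways that touch every value that follows. Vehicle replicate 5 correlated with the other arrays at r = 0.697 to 0.729 over all probe sets, against 0.946 to 0.994 among the other 9. The 3'/5' gap, the mean excess of the 3' over the 5' control probe sets of Gapdh and beta-actin, widens when RNA is degraded or its copies are cut short. It was 0.99 to 1.18 log2 on the baricitinib arrays and 3.03, 1.998, 4.35, 1.01 and 4.06 in vehicle replicates 1 to 5 (exact permutation p = 0.0317, two-sided, 5 against 5 arrays). Vehicle replicate 4 was thus the vehicle array with a gap like those of the baricitinib arrays. The part of RNA quality in the results was not tested.

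The arrays numbered 5 in each group also went against their labels in T cell markers, the cells that attack the follicle in AA. Cd8a, a marker of cytotoxic T cells, was at 4.22, 4.93, 4.67, 4.56 and 10.02 log2 in baricitinib replicates 1 to 5 and at 10.65, 11.03, 10.72, 10.17 and 4.81 in vehicle replicates 1 to 5. The median of the 9 measured T cell markers was 5.67 to 5.85 in baricitinib replicates 1 to 4 and 8.46 to 9.32 in vehicle replicates 1 to 4, but 8.52 in the array labelled baricitinib replicate 5 and 5.57 in the array labelled vehicle replicate 5. The array labelled vehicle replicate 5 nonetheless had a wide 3'/5' gap and that labelled baricitinib replicate 5 a narrow one (1.05). Groups were kept as labelled. With both arrays left out, a choice made after seeing the data, 0 of 40 subunit genes passed limma at an adjusted p of 0.05 (lowest 0.1), while 3.44% of all probe sets did. The member median was then 0.04 log2, and by complex -0.01, 0.10, 0.11 and -0.07 for complexes I to IV.

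No subunit gene of the respiratory chain passed the test between baricitinib treated and vehicle control skin, and the members pointed both ways. With limma over all 45037 probe sets 0 of 40 had an adjusted p under 0.05 (0% of all probe sets passed; lowest adjusted p of a member 0.238), and without vehicle replicate 5 again 0 (0% of all; lowest 0.0823). Baricitinib minus vehicle differences ran from -0.90 log2 for Ndufv2 to 1.55 log2 for Uqcrq, with 26 members higher and 14 lower in mean. Their median was 0.24 log2, beside 0.01 over all genes, and without vehicle replicate 5 it was 0.05, beside -0.06, with 21 higher and 19 lower.

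At an unadjusted p under 0.05 there were 6 members higher (15% of members, 9.81% of all genes) and 6 lower (15% and 6.22%). The higher ones were Ndufa4, Ndufa9, Ndufb3, Ndufb10, Ndufs4 and Uqcrc1, and the lower ones Ndufb6, Ndufc1, Ndufs7, Ndufv2, Sdhd and Uqcrc2. These signs are those of the brightest probe set. Further probe sets of Ndufs4, Ndufb6, Ndufc1, Ndufs7 and Sdhd had the opposite sign, as given below. Without vehicle replicate 5 these counts were 8 (20%, against 13.3% of all genes) and 9 (22.5%, against 16.1%). Groups did not overlap at 1 member, Ndufb6 (2.5%, against 5.63% of all genes). Without vehicle replicate 5 they did not overlap at 3 members, Ndufb6, Ndufb8 and Cox5b (7.5%, against 9.26%), each lower on every baricitinib array. By further probe sets there was separation the other way too. Ndufb2 (0.94 log2) and Uqcrb (0.46) were higher on every baricitinib array, with or without vehicle replicate 5. Further probe sets of Cox5b and Cox8a were lower on every baricitinib array only without it.

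**Figure D1:**
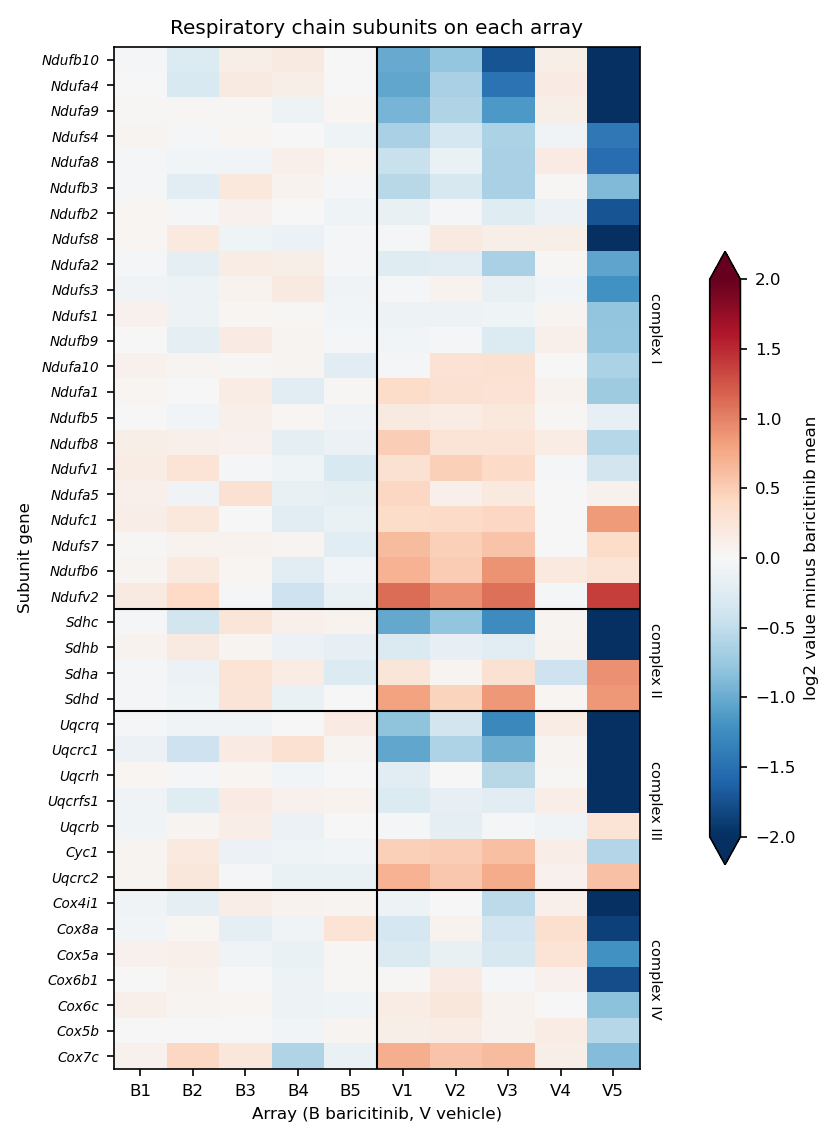
Log2 value of each of the 40 subunit genes (rows, by complex and by difference) on baricitinib arrays B1 to B5 and vehicle arrays V1 to V5 (columns), as its distance from the gene's baricitinib mean; colours stop at -2 and 2. V1, V2 and V3 share a pattern of blue and red rows, V4 is pale, and V5 has the deepest colours, mostly blue.

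**Figure D2:**
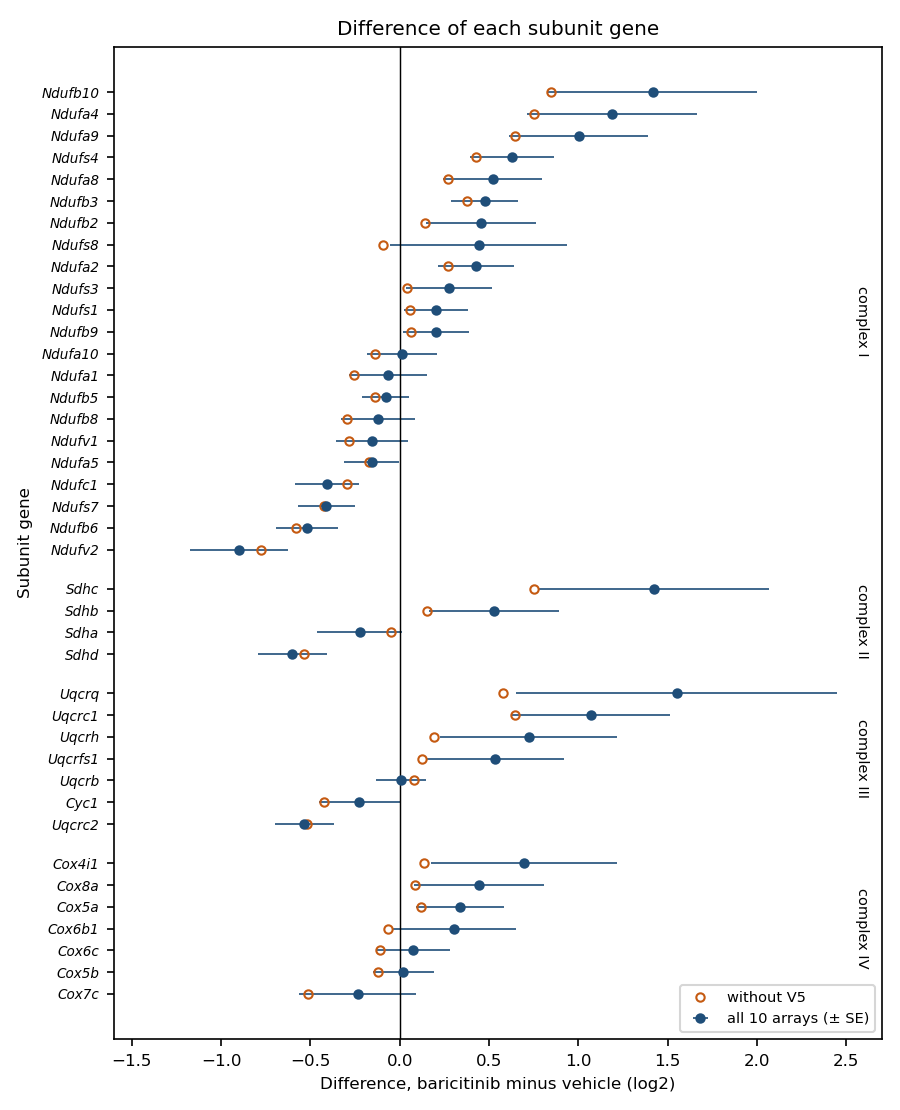
Baricitinib minus vehicle difference in log2 for each subunit gene (rows, by complex), with all 10 arrays (filled, ± SE of limma) and without vehicle array V5 (open). Differences spanned -0.90 for Ndufv2 to 1.55 for Uqcrq, and most positive ones were smaller without V5.

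Complex I, the largest of the 4 with an NADH-oxidising and a quinone-reducing arm and a proton-pumping membrane arm, held the widest split between members. Of its 22 genes 13 were higher and 9 lower in mean (median 0.20 log2), and 11 and 11 without vehicle replicate 5 (median -0.03). Ndufb10, an accessory subunit of the membrane arm, was at 11.92, 11.67, 12.06, 12.11 and 11.93 log2 in baricitinib replicates 1 to 5 and at 10.94, 11.16, 10.20, 12.06 and 8.25 in vehicle replicates 1 to 5. Vehicle replicate 4 lay among the baricitinib arrays, and the other vehicle arrays lay below them. The difference of 1.42 ± 0.58 log2 (SE, 2.67-fold, limma adjusted p = 0.312) became 0.85 ± 0.31 without vehicle replicate 5. Ndufa4, named for complex I and now placed in complex IV, was at 11.33, 11.05, 11.53, 11.47 and 11.35 in baricitinib and 10.31, 10.69, 9.88, 11.51 and 8.41 in vehicle replicates 1 to 5. It had the same order, with vehicle replicate 4 within the baricitinib range. Its difference was 1.19 ± 0.48 (limma adjusted p = 0.304), and 0.75 ± 0.28 without vehicle replicate 5.

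The opposite order was seen in Ndufv2 and Ndufb6. Ndufv2 encodes an iron-sulfur subunit of the NADH-oxidising arm. It was at 11.09, 11.31, 10.88, 10.50 and 10.78 log2 in baricitinib replicates 1 to 5 and at 12.03, 11.82, 12.02, 10.88 and 12.30 in vehicle replicates 1 to 5. Vehicle replicate 4 again lay within the baricitinib range, and here the other 4 vehicle arrays were above it, vehicle replicate 5 being the highest. The difference of -0.90 ± 0.27 (SE, 0.536-fold) had a limma adjusted p of 0.238, and was -0.78 ± 0.26 without vehicle replicate 5. With vehicle replicate 4 left out it was -1.13 and passed (limma adjusted p = 0.0393), the single member called when any 1 array was omitted, with 1.88% of all probe sets.

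Ndufb6, an accessory subunit of the membrane arm whose upstream bases are printed above, was at 11.21, 11.36, 11.19, 10.94 and 11.10 in baricitinib and 11.86, 11.68, 12.06, 11.36 and 11.43 in vehicle replicates 1 to 5. Its groups touched without overlap, since the highest baricitinib and the lowest vehicle array, vehicle replicate 4, were equal to 2 decimals. The difference was -0.52 ± 0.17 (limma adjusted p = 0.26), and -0.58 ± 0.15 without vehicle replicate 5. By the other probe set of Ndufb6 it was 0.18, and -0.12 without that array. The core subunits outside the membrane, Ndufs1, Ndufs3, Ndufs7, Ndufs8, Ndufv1 and Ndufv2, were grouped after their values were seen. Of these 6 genes 3 were higher and 3 lower (median 0.03), and without vehicle replicate 5 the counts were 2 and 4 (median -0.19). Of the 16 accessory genes 10 were higher (median 0.31), and 9 without that array (median 0.10).

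Complex II, succinate dehydrogenase, is shared with the tricarboxylic acid (TCA) cycle. Sdha carries the flavin, Sdhb the iron-sulfur clusters, and Sdhc and Sdhd anchor the enzyme in the membrane. By their brightest probe sets the 2 anchors lay on opposite sides. The other probe set of Sdhd was at 0.92 log2 (0.28 without vehicle replicate 5), on the same side as Sdhc. The values that follow are those of the brightest probe sets. Sdhc was at 10.62, 10.29, 10.90, 10.76 and 10.73 log2 in baricitinib and 9.64, 9.88, 9.40, 10.71 and 6.56 in vehicle replicates 1 to 5. Sdhd, with NRF1 and ETS letters upstream, was at 10.17, 10.14, 10.48, 10.09 and 10.21 in baricitinib and 11.02, 10.66, 11.09, 10.26 and 11.08 in vehicle replicates 1 to 5. In both genes vehicle replicate 4 fell within the baricitinib range, while the other vehicle arrays were all below it for Sdhc and all above it for Sdhd. The differences were 1.42 ± 0.64 for Sdhc (SE, limma adjusted p = 0.338) and -0.60 ± 0.19 for Sdhd (limma adjusted p = 0.249). They were 0.75 ± 0.25 and -0.54 ± 0.18 without vehicle replicate 5. The median of the 4 genes was 0.15, and 0.05 without that array.

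In complex III, 5 of 7 genes were higher in mean (median 0.53 log2, and 0.13 without vehicle replicate 5). Uqcrq, a small ubiquinone-binding subunit, was at 10.83, 10.78, 10.79, 10.87 and 11.02 in baricitinib and 10.05, 10.48, 9.57, 11.01 and 5.42 in vehicle replicates 1 to 5. Vehicle replicate 5 alone carried much of its difference, which was 1.55 ± 0.90 (SE, 2.93-fold, limma adjusted p = 0.409) with it and 0.58 ± 0.25 (1.49-fold) without it.

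The 2 large core proteins of complex III, encoded by Uqcrc1 and Uqcrc2, were split. Uqcrc1 was at 10.48, 10.19, 10.76, 10.90 and 10.65 in baricitinib and 9.55, 9.98, 9.62, 10.65 and 7.83 in vehicle replicates 1 to 5. Uqcrc2 was at 12.35, 12.52, 12.26, 12.16 and 12.16 in baricitinib and 12.99, 12.83, 13.04, 12.38 and 12.88 in vehicle replicates 1 to 5. All vehicle arrays but replicate 4 were thus below the baricitinib range for the first gene and above it for the second. Their differences were 1.07 ± 0.44 (limma adjusted p = 0.315) and -0.53 ± 0.17 (limma adjusted p = 0.242), or 0.64 ± 0.24 and -0.52 ± 0.15 without vehicle replicate 5. Cyc1, the haem-bearing subunit that passes electrons to cytochrome c, was at 10.33, 10.48, 10.16, 10.19 and 10.23 in baricitinib and 10.75, 10.77, 10.89, 10.41 and 9.70 in vehicle replicates 1 to 5. Its difference of -0.23 ± 0.23 (limma adjusted p = 0.564) was -0.43 ± 0.12 without vehicle replicate 5, which lay below all other arrays.

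Complex IV, cytochrome c oxidase, showed the narrowest range of differences, from -0.24 to 0.70 log2. Ndufa4 (1.19) is not in that range, since it was counted in complex I by its name. Of the 7 genes counted in complex IV 6 were higher in mean (median 0.30), but 3 were higher and 4 lower without vehicle replicate 5 (median -0.07). Cox4i1, a regulatory subunit needed for assembly, was at 12.01, 11.90, 12.21, 12.15 and 12.13 in baricitinib and 11.98, 12.07, 11.55, 12.18 and 9.14 in vehicle replicates 1 to 5. Apart from vehicle replicates 3 and 5, all arrays lay together. Its difference was 0.70 ± 0.52 (SE, limma adjusted p = 0.479) with all arrays and 0.13 ± 0.14 without vehicle replicate 5.

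Cox8a and Cox7c encode small subunits of the oxidase. Cox8a was at 10.61, 10.69, 10.47, 10.58 and 10.93 in baricitinib and 10.31, 10.72, 10.28, 10.97 and 8.79 in vehicle replicates 1 to 5. Its groups overlapped, with vehicle replicate 4 the highest array and vehicle replicate 5 the lowest. The difference was 0.44 ± 0.36 (limma adjusted p = 0.499), and 0.09 ± 0.17 without vehicle replicate 5. Cox7c was at 8.39, 8.71, 8.52, 7.70 and 8.16 in baricitinib and 9.03, 8.86, 8.93, 8.41 and 7.42 in vehicle replicates 1 to 5. Its groups overlapped through vehicle replicates 4 and 5, and the difference was -0.24 ± 0.33 (limma adjusted p = 0.668), or -0.51 ± 0.21 without vehicle replicate 5.

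The split between members was also seen on individual vehicle arrays. Vehicle replicates 1, 2 and 3 were all above the baricitinib mean at 16 of the 40 members and all below it at 19. Vehicle replicate 5 was also above the mean at 8 of the former and also below it at 18 of the latter. These counts were not taken over all genes, so they cannot be called particular to the members. The median distance of the 40 members from their baricitinib mean, taken without regard to sign, was 0.36, 0.25, 0.40, 0.08 and 0.99 log2 in vehicle replicates 1 to 5, whose 3'/5' gaps were 3.03, 1.998, 4.35, 1.01 and 4.06. In the baricitinib arrays, each set against the other 4, it was 0.06 to 0.13. Over all genes the same measure was 0.37, 0.26, 0.40, 0.20 and 1.10 in the vehicle arrays and 0.11 to 0.23 in the baricitinib arrays.

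Vehicle replicate 4 lay within the baricitinib range at 30 of the 40 members (75%, against 59.3% of all genes). Vehicle replicates 1, 2, 3 and 5 lay within it at 8, 11, 7 and 1 members (20%, 27.5%, 17.5% and 2.5%, against 40.2%, 52.1%, 37.7% and 18% of all genes). The array with a narrow gap was therefore the vehicle array nearest to the baricitinib arrays in its subunit values, and those with wide gaps were farther. With vehicle replicates 1, 3 and 5 left out, a choice made after seeing the data, the member median was -0.05 log2 and 1 of 40 members (2.5%) had an unadjusted p under 0.05 in limma, against 10.1% of all genes. The vehicle arrays kept, replicates 2 and 4, were already those nearest to the baricitinib mean at the members (0.25 and 0.08 log2). A low count of members follows from that choice and is no test of RNA quality. Treatment and RNA quality cannot be told apart in this design, because the gap hardly varied among the baricitinib arrays.

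**Figure D3:**
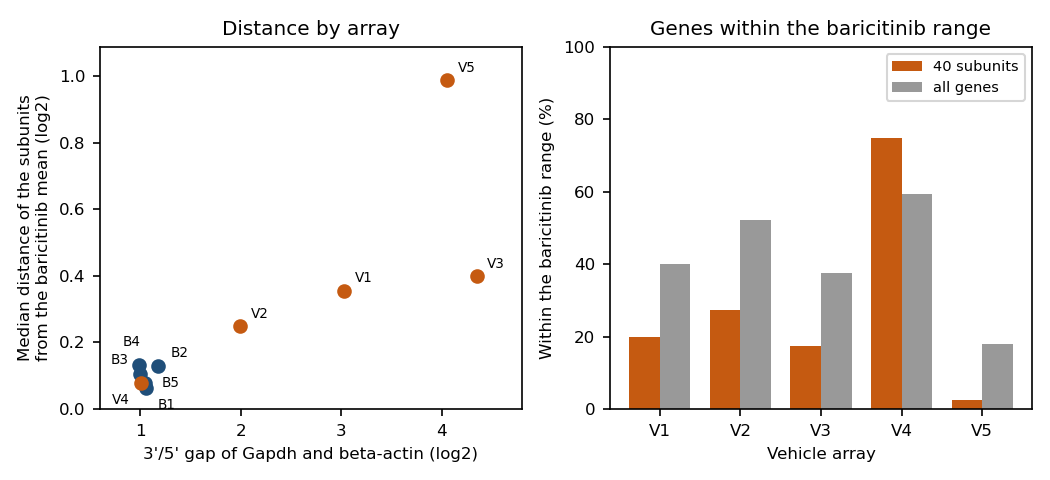
Left, median distance in log2 of the 40 subunit genes from their baricitinib mean (own array left out for B1 to B5) against the 3'/5' gap in log2, for baricitinib (blue) and vehicle arrays (orange). Right, percent of the 40 subunits and of all genes that lay within the baricitinib range on each vehicle array, which was 75% for V4 and 2.5% for V5 among the subunits.

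Probe sets of the same gene did not always share a sign. Of the 40 members 26 had more than 1 probe set with their symbol alone. Among the 37 further probe sets with a mean above 6 log2, from 25 genes, 16 had a difference opposite in sign to that of the brightest (17 without vehicle replicate 5). Sdhd was at -0.60 log2 by its brightest probe set and 0.92 by the other. For Ndufb6 the pair was -0.52 and 0.18, for Ndufc1 -0.40 and 0.65, and for Ndufs7 -0.41 and 0.56. Uqcrq, at 1.55 by its brightest probe set, was at -0.18 by the next. Ndufs4, at 0.63 by its brightest, was at -0.29 and -0.44 by its further probe sets above 6 log2. The 3 probe sets of Ndufv2 shared a sign (-0.90, -0.16 and -0.56), as did both of Sdhc (1.42 and 1.04). Without vehicle replicate 5 the opposite signs were kept in Sdhd (-0.54 and 0.28), Ndufs7 (-0.42 and 0.19), Uqcrq (0.58 and -0.29) and Ndufs4 (0.43 against -0.32 and -0.44). They were not kept in Ndufb6 (-0.58 and -0.12) and Ndufc1 (-0.29 and -0.01), so for these the conflict rested on that array. Ndufc1, Ndufs7 and Ndufs4 were picked as examples after their values were seen.

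**Figure D4:**
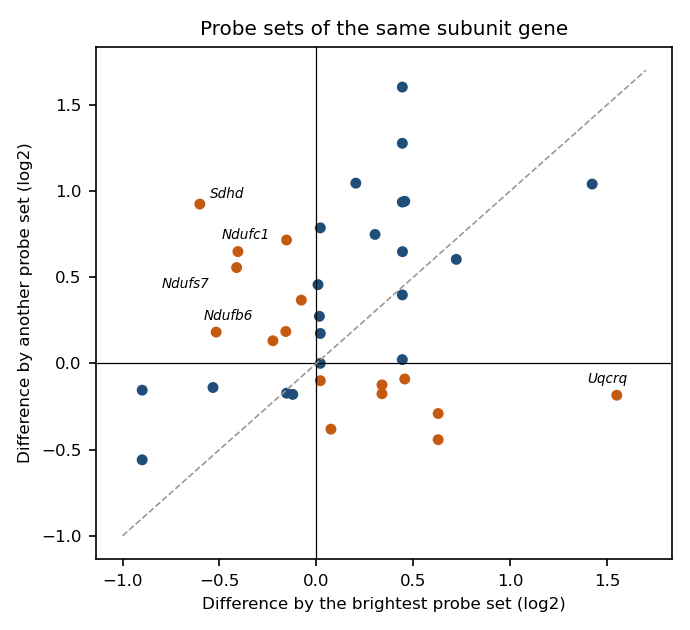
Baricitinib minus vehicle difference in log2 by a further probe set of a subunit gene (vertical) against that by the gene's brightest probe set (horizontal), for 37 probe sets with a mean above 6 log2; the dashed line marks equal values. Orange points, 16 in all, have opposite signs, among them Sdhd at -0.60 and 0.92.

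Other genes of the mitochondrial machinery were read from lists chosen by name, and 0 genes of each passed limma at an adjusted p of 0.05, with or without vehicle replicate 5. Of 12 further complex I subunits 9 were higher in mean (median 0.25 log2, and 0.11 without vehicle replicate 5), with the largest difference in Ndufs5 (1.10, and 0.52). Of 6 further subunits of complexes III and IV with cytochrome c 5 were higher (median 0.28 and 0.02), led by Uqcr11 (1.61 and 0.75). For ATP synthase it was 12 of 15 (median 0.40 and 0.16), led by Atp5g2 of the proton-carrying ring (1.89 and 1.18). Assembly factors were higher in 12 of 20 (median 0.14 and -0.11), led by the complex I factor Ndufaf3 (1.69 and 0.98). Atp5g2 was at 11.58, 11.50, 11.63, 11.69 and 11.62 log2 in baricitinib and 10.20, 11.03, 8.80, 11.66 and 6.88 in vehicle replicates 1 to 5, so vehicle replicate 4 lay within the baricitinib range here too.

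Genes of the pathways that feed the chain were read in the same way. Of 14 TCA cycle and pyruvate dehydrogenase genes 9 were higher (median 0.13 log2, and 0.08 without vehicle replicate 5), led by Dlst of the oxoglutarate dehydrogenase complex (0.96 and 0.66). Of 12 fatty acid oxidation genes 8 were higher (median 0.42 and 0.23), with 4 higher and 0 lower at an unadjusted p under 0.05 in limma (9.81% and 6.22% of all genes). Without vehicle replicate 5 these counts were 6 and 0 (13.3% and 16.1% of all genes). Etfb, which carries electrons from fatty acid oxidation toward ubiquinone, was at 11.61, 11.37, 11.98, 12.19 and 11.58 in baricitinib and 9.63, 10.33, 8.63, 11.60 and 7.44 in vehicle replicates 1 to 5 (difference 2.22 ± 0.65, SE, limma adjusted p = 0.233), and the difference was 1.698 without vehicle replicate 5. Glycolysis genes were higher in 5 of 11 (median -0.08 and -0.23), with Pfkm, the muscle phosphofructokinase, farthest (1.08 and 0.75). Cytosolic ribosomal protein genes, a comparison outside mitochondria, were higher in 11 of 13 (median 0.20 and 0.10), led by Rpl8 (0.79 and 0.31).

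Regulators of mitochondrial biogenesis were higher in 5 of 12 (median -0.04 log2, and 0.13 without vehicle replicate 5). Ppargc1b, a coactivator of respiratory chain genes, was at 6.82, 6.37, 7.26, 7.38 and 7.75 in baricitinib and 8.19, 8.11, 8.26, 7.88 and 8.24 in vehicle replicates 1 to 5. It was lower on every baricitinib array than on any vehicle array, vehicle replicates 4 and 5 included. That made 1 of 12 regulators without overlap (8.33%, against 5.63% of all genes). The difference was -1.02 ± 0.25 (SE, 0.493-fold, limma adjusted p = 0.223), and -0.99 ± 0.25 without vehicle replicate 5 (limma adjusted p = 0.0794), so it did not pass. With replicate 5 of both groups left out it was -1.15 and passed (limma adjusted p = 0.0331). So did 3.44% of all probe sets in that sample set, which was chosen after seeing the data.

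Muscle and fat markers differed in mean between the groups beside the subunits. Skeletal muscle markers were higher in mean in 13 of 15 (median 0.71 log2, and 0.64 without vehicle replicate 5), with list medians of 11.59 to 12.86 on baricitinib and 11.17 to 11.86 on vehicle arrays. Creatine kinase Ckm was at 9.54, 8.39, 10.62, 10.45 and 9.57 in baricitinib and 7.99, 8.45, 7.63, 9.19 and 6.94 in vehicle replicates 1 to 5 (difference 1.67, and 1.40 without vehicle replicate 5). Among vehicle arrays replicate 4 had the most Ckm signal and the highest muscle list median. The muscle isoforms Cox6a2, Cox7a1 and Cox8b of complex IV had a median of 0.29 (0.43 without vehicle replicate 5), with Cox7a1 at 0.83 (0.68). Their list median went the other way on vehicle replicate 4, where it was lowest (8.79), against 10.17 to 10.60 on the other vehicle arrays.

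Adipocyte markers were higher in 10 of 10 (median 1.48 and 1.24), with list medians of 9.29 to 11.31 in baricitinib and 8.42 to 9.24 in vehicle. Lep, encoding leptin, had the largest difference (2.67, and 2.58 without vehicle replicate 5), which was 2.86 and passed with replicate 5 of both groups left out (limma adjusted p = 0.025). In that sample set 3.44% of all probe sets passed. Brown adipocyte markers, of which Cox8b and Ppargc1a also stand in other lists, were higher in 3 of 7 (median -0.07 and 0.43). Their list medians were 8.19 to 9.07 in baricitinib and 5.54 to 7.96 in vehicle, but these genes stand at unlike levels. Taken from each gene's baricitinib mean, the median distance was 0.39, -0.24, -0.02, -0.98 and 0.39 log2 in vehicle replicates 1 to 5. The list was thus not lower on every vehicle array. Cidea, a lipid droplet gene, differed by 2.44 in mean, and by 1.37 without vehicle replicate 5. The part of muscle and fat content in the subunit values was not tested.

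Keratinocyte markers, which define the labelled tissue, had list medians of 11.98 to 12.77 log2 in baricitinib and 11.94 to 12.96 in vehicle skin, so the tissue label was borne out. Their median difference was -0.02 (-0.16 without vehicle replicate 5), with Sfn at 1.33 (0.47). With the value without vehicle replicate 5 again in parentheses, hair matrix and shaft markers had a median of 0.35 (-0.07), with Krt33b at 1.08 (0.21). Proliferation markers had a median of -0.54 (-0.91), with Bub1 at -1.35 (-1.51), and sebocyte markers one of 0.04 (0.12), with Fads2 at 1.22 (0.81). T cell markers had a median of -0.79 (-0.94), with Cd8a at -3.80 (-4.96). Macrophage markers had a median of 0.38 (-0.07), with Cd163 at 1.02 (1.19), and fibroblast markers one of 0.21 (0.13), with Dcn at 1.21 (1.12). The hair matrix and macrophage medians thus changed sign when that array was left out. With replicate 5 of both groups left out Cd8a was at -6.05. Those arrays had been singled out by Cd8a and other T cell markers, so this is no test of Cd8a. In the same sample set Cd163 was at 1.33 (limma adjusted p = 0.0443) and Dcn at 1.19 (limma adjusted p = 0.0382). Both passed, as did 3.44% of all probe sets.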

How the data were processed

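Skin RNA of 10 mice was amplified with NuGen reagents and read on whole-genome mouse GeneChip arrays of Affymetrix. The deposited values are log2 expression values per probe set that the authors made by RMA, run on the arrays of this experiment alone; its version is not given in the sources used here. RMA equalises probe intensities across arrays, yet the deposited probe set values of vehicle replicate 5 were spread less than the rest. Their standard deviation was 2.28 log2, against 2.71 to 2.79 on the other arrays. The median over all genes was 6.62 log2 on that array, against 7.79 to 7.96 on the others. The study's methods removed a vehicle array after quality control without naming it, so all 10 entered and each was left out in turn. Groups and replicate numbers came from the sample titles.

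Of the probe sets 64 controls were set aside and 45037 were tested without a filter, of which 34945 had 1 gene symbol, 932 several and 9160 none. The 2 groups entered a linear model per probe set in limma (3.58.1, under R 4.3.3) with moderated errors from eBayes, and two-sided p-values were adjusted by Benjamini-Hochberg over all probe sets at a threshold of 0.05; fold values are 2 to the power of the log2 difference. Lists are described by counts and medians without a test. The members and lists were chosen with earlier results of these data known. Values on every array are given for the 2 members with the largest differences each way in each complex (1 each way in complex II) and for members without overlap. From each other list the gene with the largest difference is named, with values on every array for Atp5g2, Etfb, Ppargc1b, Ckm and Cd8a, which were picked after their values were seen. Alternatives were another filter, normalisation, weights, block, covariate, moderation, probe set choice and sample set. The fit was tested on simulated data. Precision is limited by the number of arrays.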

Additional observations from a re-analysis of the deposited data

Results flagged for a closer look

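Among 76 groups of 5 arrays examined, 9 had 1 array that lay apart from its group. In 8 of these 9 it was vehicle replicate 5 that stood far from the other 4 vehicle arrays. The rule flags about 1 in 20 groups by chance if they are independent. These groups share arrays and genes, and many of the genes were named for large differences, so the count cannot be set against chance. The median over the members was 10.30 log2 on vehicle replicate 5, against at least 11.23 on the other vehicle arrays. Over all genes that array had a median of 6.62, against at least 7.82 on the others, so the drop was not confined to the members. By complex its medians were 10.48 for complex I (nearest 11.23), 9.74 for complex II (nearest 10.47) and 9.70 for complex III (nearest 10.91). Single genes were Uqcrq at 5.42 (nearest 9.57), Cox4i1 at 9.14 (nearest 11.55), the ribosomal protein gene Rpl8 at 10.02 (nearest 12.08) and the T cell gene Cd8a at 4.81 (nearest 10.17). The remaining result was Cd8a in baricitinib replicate 5, at 10.02 against 4.93 in the nearest baricitinib array. These 2 values of Cd8a, each on the other group's side, stand in arrays labelled replicate 5, and the labels were kept.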

How the results depend on the processing

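No member passed in limma under another normalisation, filter, moderation, probe set choice or an adjusted p under 0.1. With array quality weights 13 did (7 higher, 6 lower, 21.5% of all probe sets passing), and with each array left out in turn 0 to 1 did, the 1 being Ndufv2 without vehicle replicate 4 (1.88% of all probe sets). Without single arrays the member median ran from 0.05 to 0.31 log2, with -0.03 to 0.28, 0.05 to 0.21, 0.13 to 0.70 and -0.07 to 0.40 for complexes I to IV, the lowest of each without vehicle replicate 5; no named gene turned sign. With the 3'/5' gap as a covariate the medians were -0.16 for all members and -0.10, -0.24 and -0.26 for complexes I, III and IV. Signs turned there for Ndufb10 -0.11, Ndufa4 -0.10, Sdhc -0.031, Uqcrq -0.39, Cox4i1 -0.34, Cox8a -0.35, Ndufs5 -0.18, Uqcr11 -0.26, Atp5g2 -0.31, Rpl8 -0.18, Sfn -0.58, Krt33b -1.01 and Fads2 -0.69. With that covariate and vehicle replicate 5 left out the medians were -0.092 for all, -0.061 for complex I and -0.15 for complex IV, with Uqcrq -0.083, Cox4i1 -0.16, Cox8a -0.25, Ndufs5 -0.011, Atp5g2 -0.14, Rpl8 -0.029, Sfn -0.33, Krt33b -0.76 and Fads2 -0.64. With vehicle replicates 1, 3 and 5 left out, chosen after seeing the data, they were -0.047 for all and -0.13 for complex IV, with Cox4i1 -0.049, Cox8a -0.19, Sfn -0.14, Krt33b -0.67 and Fads2 -0.43. With replicate 5 of both groups left out, also chosen after seeing the data, Krt33b was at -0.020. With the mean of all probe sets of a gene Sdhd was at 0.16 and Cox7c at 0.069. Without probe sets whose names mark possible cross-matching, which left 32 members, the medians of complexes I and II were 0.50 and 0.53, with Ndufb6 0.18, Sdhd 0.92, Uqcrq -0.18 and Cox7c 0.37. The cause was not tested for any of these. Same-numbered arrays deviated with r of -0.23 to 0.09, and 1 of 5 baricitinib arrays correlated best with its own number, so the samples share only a number; with the replicate number as a block 0 members passed (lowest limma adjusted p 0.351) and the median stayed at 0.24.

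Only 5 arrays per group, a wide 3'/5' gap on 4 of 5 vehicle arrays and T cell markers against the labels in both replicates 5 limit these comparisons. The gap hardly varied among baricitinib arrays, so its adjustment rests on the vehicle arrays.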
